A study of Mus musculus with 2 samples.

Results

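The cells described here are the Pax1-positive epithelial cells of the mouse mandibular arch at E9.5, labelled pharyngeal pouch endoderm. They were selected on raw counts of transcript molecules (UMIs, unique molecular identifiers). A cell was included with at least 1 UMI of Epcam, an adhesion protein of epithelia, and at least 1 UMI of Pax1, a paired-box transcription factor of the pharyngeal pouches and of the sclerotome. Of 12744 cells that passed the quality limits, 356 met this rule, which is 2.79% of the library (2.51 to 3.09) and 7.39% (6.67 to 8.17) of its 4816 Epcam-positive cells. The study sequenced 2 libraries of mouse embryos of the genotype K14Cre;R26mT/mG, in which a keratin 14 promoter drives Cre and recombined cells carry membrane GFP. The E9.5 library held whole mandibular arches of 8 embryos of 1 litter, pooled and unsorted, so that epithelium, mesenchyme and any adjoining pharyngeal tissue entered together. The E12.0 library held GFP+ epithelial cells sorted from 6 pooled embryos. With 1 library for each stage no comparison has a replicate, so no test was possible and no p-value is given, and all intervals are 95% intervals of counting error only.

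The pharyngeal pouches are outpocketings of the foregut endoderm between the arches. Where a pouch meets the surface ectoderm of a cleft, both sheets come into contact, and different pouches later give the lining of the middle ear, the tonsil, the thymus and the parathyroid glands. Pax1 and its relative Pax9 are classical markers of pouch endoderm, acting with factors such as Eya1 and Tbx1, and pouch endoderm is known as a source of Fgf, Wnt, Shh and other signals for the arches beside it. The first pouch lies directly behind the mandibular arch.

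Pax1 lies on chromosome 2 from 147361925 to 147393295 of GRCm38, on the plus strand. An antisense gene, AI646519, runs against it from 147357454 to 147362793, and 183 exonic bases are shared by both genes. The homeobox genes Hmx3 (chromosome 7, 131542867 to 131544925) and Hmx2 (chromosome 7, 131548773 to 131558014), known from the inner ear, are neighbours on the plus strand, 3848 bases apart. Both were among the leading genes of the cells chosen by Pax1, and for this reason the bases just upstream of the RefSeq starts of these 3 genes are shown, 5′ to 3′ on the plus strand of GRCm38.p6.
Pax1, chr2:147364744-147364993: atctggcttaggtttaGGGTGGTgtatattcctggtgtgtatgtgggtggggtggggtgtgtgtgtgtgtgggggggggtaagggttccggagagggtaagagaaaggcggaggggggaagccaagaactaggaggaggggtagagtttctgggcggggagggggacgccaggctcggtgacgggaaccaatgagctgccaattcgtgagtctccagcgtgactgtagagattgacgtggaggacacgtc
Hmx3, chr7:131542713-131542866: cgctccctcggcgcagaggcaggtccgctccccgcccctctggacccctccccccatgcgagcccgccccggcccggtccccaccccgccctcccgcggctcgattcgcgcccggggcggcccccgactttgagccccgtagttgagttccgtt
Hmx2, chr7:131548507-131548756: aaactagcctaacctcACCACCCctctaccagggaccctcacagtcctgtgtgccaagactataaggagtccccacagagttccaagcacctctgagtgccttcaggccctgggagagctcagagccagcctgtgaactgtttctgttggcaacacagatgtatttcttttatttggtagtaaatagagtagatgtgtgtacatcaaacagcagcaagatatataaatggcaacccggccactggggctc
The Pax1 window precedes a RefSeq start that lies inside the longer GENCODE gene model. Its 250 bases were 58.8% G and C, against 77.3% in the 154 bases at Hmx3, 49.6% in the 250 bases at Hmx2 and a median of 52.4% over all 32851 windows. Each window was searched on both strands for CAAGTG (a core bound by HMX and NKX2 factors), TAATCC (OTX and PITX), CTTTGAT (TCF and LEF) and a 9-base GLI site, which is ACCACCC with a G before it and an A after it. None of these 4 motifs was found in the 3 windows shown. Over all windows they were found in 11.6%, 6.25%, 3.21% and 0.225%. The 7-base core ACCACCC alone was searched only after the longer GLI site had given no match, and it is contained in that site. The core was found in 3.92% of all windows, at Pax1 on the minus strand (147364760 to 147364766) and at Hmx2 on the plus strand (131548523 to 131548529), and these bases are in capitals. Such matches are a description of the letters. Among the 20 leading genes described below, 14 had a window, and CAAGTG was found at Pax9 and Sp5, CTTTGAT at AI646519 and Sp5, ACCACCC at Hmx2 and Lifr, and TAATCC and the longer GLI site at none.

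The selected cells carried between 1 and 15 Pax1 UMIs. A single UMI was found in 130 cells, 2 in 71 and 3 or more in 155. They held 987 of the 1045 Pax1 UMIs of all kept cells (94.4%), which describes the rule together with the data and is not a result. Cells just inside the rule, with 1 Pax1 UMI, therefore make up a large part of the group. Epcam ranged from 1 to 21 UMIs with a median of 7, and 15 cells (4.21%) had a single Epcam UMI. As background for Pax1, 0 of 180 endothelial cells (3 or more Cdh5 UMIs and no Epcam) and 43 of 3512 mesenchymal cells (3 or more Prrx1 UMIs and no Epcam) had a Pax1 UMI, the latter 1.22%. The selected cells summed to 5152622 UMIs, with 993 to 27983 UMIs per cell, medians of 13906 UMIs and 4056 genes, and a median mitochondrial share of 1.87%. Libraries shared 51 cell barcodes, 2 of them among the selected cells.

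Just outside the rule were 57 Pax1-positive cells without Epcam. These were measured at 637 CPM of Twist1 and 316 CPM of Prrx1, both mesenchymal transcription factors, and at 4.24 CPM of Pax9 and 10.6 CPM of Uchl1. CPM stands for UMIs of a gene in a group of cells for each 1000000 UMIs of that group. Also just outside were 92 Epcam-positive cells with Pax9 but no Pax1. Uchl1, which encodes a ubiquitin hydrolase, was at 311 CPM in these and at 372 CPM in the selected cells, whereas Hmx2 was at 7.75 against 49.1 CPM and Irx1 at 47.3 against 93.2 CPM. Failure to capture Pax1 and its absence cannot be told apart in a single cell, so some cells of the same kind may lie outside the rule.

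For comparison, the remaining Epcam-positive cells were divided by the general foregut endoderm genes Foxa1, Foxa2 and Shh. There were 4064 cells with no UMI of these (Foxa/Shh-negative cells, median 13480.5 UMIs) and 396 with at least 1 (Foxa/Shh-positive cells, median 12735.5 UMIs). All 12388 other kept cells, of any type, formed the widest comparison. Foxa/Shh-negative cells were the less clearly epithelial group, since 29.2% of them had only 1 Epcam UMI, compared with 9.09% of Foxa/Shh-positive cells. A UMI of Prrx1, Pdgfra or Twist1 was found in 53.0% of Foxa/Shh-negative, 40.9% of Foxa/Shh-positive and 47.8% of Pax1-positive epithelial cells. Twist1 alone was detected in 42.2% of the endothelial cells defined above, at 56.2 CPM against 738 CPM in the mesenchymal cells, so a single such UMI does not identify mesenchyme. A gene was counted as higher when its CPM was at least 1.3 times that of the other group and at least 15% of the cells of the higher group had a UMI, and as lower by the same limits in the other direction. Genes with a UMI in fewer than 15% of the cells of both groups were not counted, nor were Pax1, Epcam, Foxa1, Foxa2 and Shh.

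The label was compared with its 5 markers. Pax1 and Epcam follow from the selection. Uchl1 was detected in 91.3% of the 356 cells, Irx1 in 52.2% and Pax9 in 43.0%, against 38.4%, 19.7% and 1.23% of Foxa/Shh-negative cells. General endoderm genes were found in a minority of the cells. Foxa2 was detected in 19.1%, Foxa1 in 15.2% and Shh in 7.02% of the cells, and 232 of 356 had no UMI of any of these 3 genes. The 124 cells with a UMI were 34.8% (29.9 to 40.0), compared with 396 of the 4460 Pax1-negative Epcam-positive cells, which is 8.88% (8.06 to 9.75). Gata4 and Ttr had no UMI at all, and Sox17 was at 4.85 CPM. A UMI of Foxa1, Foxa2 or Shh was thus more often detected than in other epithelial cells but was not detected in most of the selected cells. The other 12 foregut endoderm genes on a fixed list summed to 38.0 CPM, with an interval that overlapped those of both other epithelial groups, as given below with the markers of other cell types. The cells are therefore called Pax1-positive epithelial cells.

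Pax1-positive cells were first compared with Foxa/Shh-negative epithelial cells, where Pax9, Uchl1 and Hmx2 led the genes that were higher. Of 7717 genes, 643 (8.33%) were higher and 391 (5.07%) lower, and for 1023 of these calls the interval of the ratio excluded equality. Against Foxa/Shh-positive cells 409 of 7849 genes (5.21%) were higher and 731 (9.31%) lower, and against all other kept cells 1390 of 7718 (18%) were higher and 609 (7.89%) lower. Because the comparisons share the Pax1-positive cells, their values stand side by side and are not independent. The cells were selected on Pax1 and Epcam UMIs, and every other gene was read in these same cells, so the values below are descriptions of the selected group.

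Among transcription factors, Pax9 was found at 60.0 CPM (53.5 to 67.0) in Pax1-positive cells, 12.8 CPM in Foxa/Shh-positive cells and 1.24 CPM in Foxa/Shh-negative cells, a log2 difference of 5.60 from the last, with a lower bound of 5.22. Single cells held 0 to 9 Pax9 UMIs with a median of 0. The relative of Pax1 was thus detected in 43.0% of the cells chosen by Pax1 and in few other epithelial cells. Hmx2 was at 49.1 CPM against 2.94 and 3.06 CPM in the Foxa/Shh-positive and Foxa/Shh-negative cells, and was detected in 35.1% of Pax1-positive cells. Hmx3 was at 48.3 CPM against 4.77 and 4.03 CPM, with a share of 36.8%. Neither of the Pax1-negative epithelial groups stood clearly apart from the other in the Hmx genes, where their intervals overlapped. Irx1, an Iroquois homeobox gene (chromosome 13, 71957921 to 71963723, minus strand), was at 93.2 CPM (85.0 to 102) against 17.4 and 19.7 CPM, with 0 to 11 UMIs per cell and a median of 1.

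Uchl1 (chromosome 5, 66676091 to 66687234, plus strand) was detected in 91.3% of the cells. It was at 372 CPM (356 to 389), with 0 to 23 UMIs and a median of 4 per cell. Foxa/Shh-positive cells had 189 CPM and a median of 1.5 UMIs, and Foxa/Shh-negative cells 47.7 CPM and a median of 0, so that the 3 groups were graded in Uchl1 but overlapped cell by cell. When each cell was reduced at random to 3100 UMIs, leaving 353, 393 and 3935 cells, Uchl1 was detected in 61.2% of Pax1-positive, 37.2% of Foxa/Shh-positive and 13.3% of Foxa/Shh-negative cells. On the same footing Pax9 was detected in 18.4%, 3.05% and 0.457%, Hmx2 in 11.6%, 1.53% and 1.17%, and Irx1 in 18.4%, 4.33% and 5.54%. At equal depth Pax1-positive cells thus kept the highest share of all 4 genes.

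**Figure D1:**
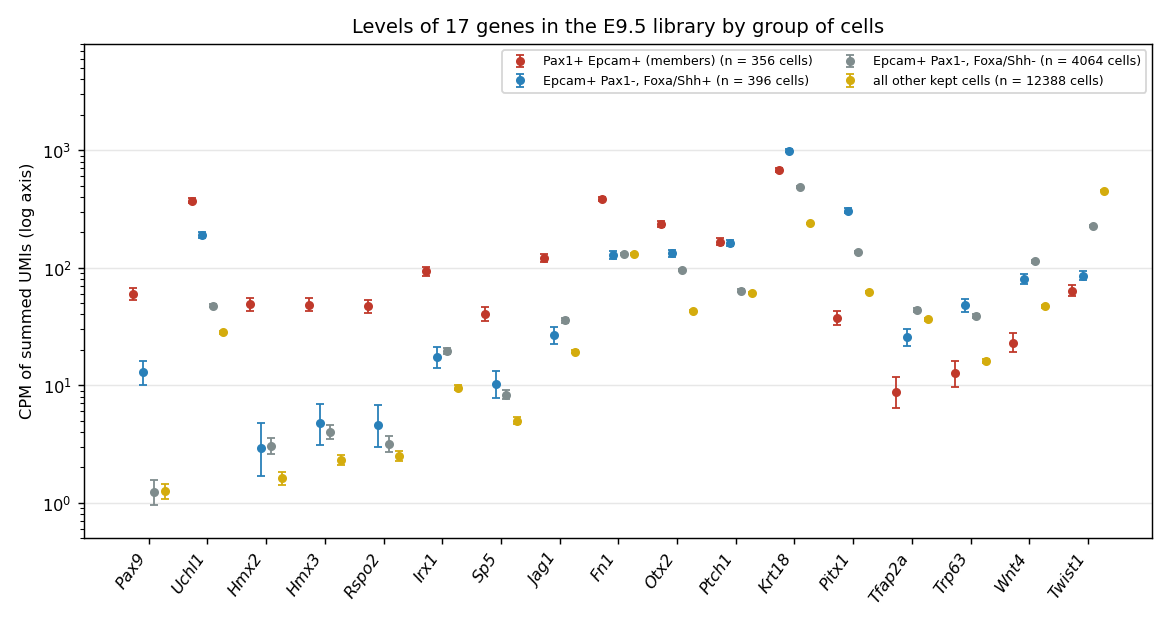
Levels of 17 genes in the E9.5 library, as CPM of summed UMIs on a log axis with exact 95% Poisson intervals, for Pax1-positive epithelial cells (members, red), Foxa/Shh-positive cells (blue), Foxa/Shh-negative cells (grey) and all other kept cells (yellow). Hmx2, Hmx3 and Rspo2 sit near 50 CPM in the red group and under 5 CPM in the other 3, whereas Pitx1, Tfap2a and Wnt4 are lowest in red.

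Among 29 pouch and cleft regulators on a fixed list, 16 were counted against Foxa/Shh-negative cells. Of these 13 were higher and 1, Tbx3, was lower, with a median log2 difference of 0.63 beside 0.01 over all genes counted. The label's markers Pax9, Uchl1 and Irx1 are among the 13. The list is not particular to pouches. At E9.5 the study found Irx1 in most ectodermal cells of the arch and Sox2 in oral epithelium. It also reports Nkx2-3 in oral epithelium at E12.0. The count therefore does not separate pouch from oral epithelium. With at least 3 Epcam UMIs in every cell 10 of 18 were higher and 3 lower (median 0.39), and without the upper gene limit 12 of 17 were higher and 1 lower (median also 0.39). Eya1, a transcriptional coactivator, was at 43.3 against 23.4 CPM. Tbx1, a T-box factor needed for pouch formation, was at 26.2 against 13.0 CPM. The homeobox genes Irx2, Irx3 and Irx5 were at 17.7, 71.4 and 56.3 CPM against 8.94, 51.8 and 43.1 CPM. When the groups were defined on cells thinned to 3100 UMIs, Irx2, Nkx2-5 and Isl1 turned to log2 differences of -0.02, -0.11 and -0.39. Sox2 was at 153 against 70.9 CPM, and Nkx2-3 at 245 against 122 CPM. Six4 and Sox9 did not pass the limits, at 41.9 against 44.7 CPM and 46.6 against 48.8 CPM. Of the list, Hoxa3, Gcm2 and Foxn1, which mark more posterior pouches and the thymus and parathyroid fates, had no UMI in 5152622, which at a floor of 3 counts is 0.582 CPM.

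The same list split differently against Foxa/Shh-positive cells. Of 16 genes counted, 10 were higher and 3 lower, with a median of 0.73. Sox2 and Nkx2-3 were no longer higher, at 190 and 256 CPM in Foxa/Shh-positive cells, while Nkx2-5 (37.8 against 61.3 CPM), Isl1 (75.9 against 135 CPM) and Tbx3 (16.1 against 66.3 CPM) were lower. Sox9 was higher, at 46.6 against 23.5 CPM. The Iroquois genes, Eya1 and Tbx1 were higher against both groups. Against all other kept cells, 12 of 16 were higher and 2 lower. The forkhead genes Foxi3 and Foxi2 were compared with Foxa/Shh-negative cells. Foxi3 was at 5.24 against 1.90 CPM and Foxi2 at 1.94 against 15.7 CPM, both below the share of cells required.

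A UMI cannot be assigned between AI646519 and Pax1 where the 2 genes overlap, because the use of strand in the counting is not given in the sources used here. With that limit, AI646519 was at 18.6 CPM in Pax1-positive cells, 1.28 CPM in Foxa/Shh-positive and 0.251 CPM in Foxa/Shh-negative cells, a log2 difference of 6.22 (5.40 to 7.14) from the last. It was detected in 22.5% of the cells. The same limit holds for Gm12446, at 23.5 against 4.82 CPM, which shares 1907 bases with the forkhead gene Foxe1 on chromosome 4.

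Secreted signals were the next group. Of 27 ligands on a fixed list, 13 were counted against Foxa/Shh-negative cells, of which 5 were higher and 4 lower, with a median log2 difference of 0.28. This median had no stable sign, at -0.08 with thinned cells, -0.37 with groups defined on thinned cells, -0.25 without cells holding a mesenchymal UMI and -0.05 with at least 3 Epcam UMIs. Jag1, a membrane-bound ligand of Notch receptors, was at 121 CPM (112 to 131) against 35.7 CPM and was detected in 65.4% against 30.6% of cells. Cxcl12, a chemokine, was at 115 against 64.7 CPM, Vegfa at 34.4 against 18.3 CPM, Wnt5a at 76.9 against 58.7 CPM and Slit2 at 18.4 against 13.1 CPM. Vegfa turned to the other side, with a log2 difference of -0.47, when the groups were defined on thinned cells, which left 135 Pax1-positive cells. The lower ligands were Wnt4 (23.1 against 113 CPM), Wnt9b (6.99 against 16.6 CPM), Sema3a (28.1 against 65.9 CPM) and Fgf8 (67.9 against 94.4 CPM). Edn1, the endothelin that patterns the lower jaw, was at 72.4 against 58.6 CPM and Bmp7 at 47.2 against 37.3 CPM, neither past the limits. Ntn1, which encodes netrin 1, was at 14.0 CPM (10.9 to 17.6) against 1.09 CPM but in 13.5% of cells only. Fgf3 (2.72 against 0.143 CPM) and Fgf15 (2.14 against 0.179 CPM) were found in few cells, with shares of 2.81% and 2.53%. When set against Foxa/Shh-positive cells, 5 of 13 ligands were higher and 3 lower, with Jag1 at 26.6, Cxcl12 at 52.5 and Fgf8 at 49.6 CPM in those cells. Against all other kept cells 9 of 12 were higher and 1 lower.

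Rspo2, a secreted protein that raises the response to Wnt, was not on this list but was among the leading genes. It was found at 47.0 CPM in Pax1-positive cells, 4.59 CPM in Foxa/Shh-positive and 3.17 CPM in Foxa/Shh-negative cells (log2 difference 3.89, 3.60 to 4.18, from the last). It was detected in 34.0% of the cells, and in 11.3% after thinning against 2.29% and 0.737%.

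Receptors and response genes of the same pathways were mixed. Of 24 counted from a list of 33, 5 were higher and 11 lower than in Foxa/Shh-negative cells, with a median of -0.15. Without the upper gene limit 6 of 26 were higher and 6 lower (median -0.05). Ptch1, which is both a receptor and a target of Hedgehog, was at 166 against 63.6 CPM, and the further Hedgehog targets Gli1 and Hhip at 10.7 and 11.5 CPM against 3.89 and 3.08 CPM, with shares below the limit. Foxa/Shh-positive cells had 162 CPM of Ptch1, so that Ptch1 set Pax1-positive cells apart from Foxa/Shh-negative cells but not from these. For Notch, Notch1 was at 15.5 against 9.76 CPM and its target Hey1 at 27.8 against 16.6 CPM, in addition to Jag1. For Wnt, the targets Sp5 (40.6 against 8.31 CPM) and Axin2 (21.5 against 16.0 CPM) were higher and Lef1 (21.2 against 46.2 CPM) was lower. Axin2 was near the limit and turned to -0.44 on the log2 scale with groups defined on thinned cells. Fzd4, a Wnt receptor among the leading genes, was at 62.9 against 17.1 CPM.

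Among the lower genes of this list were members of Fgf and Bmp signalling. These pathways were not lists of their own, so no share was set beside them. Fgfr2 (24.3 against 39.2 CPM), Spry2 (12.8 against 22.0 CPM), Etv5 (14.0 against 19.2 CPM) and Dusp6 (40.0 against 58.7 CPM) are a receptor and targets of Fgf. Etv5 turned to a log2 difference of 0.20 with groups defined on thinned cells. Id1 (346 against 479 CPM), Smad7 (23.5 against 38.6 CPM), Msx1 (26.8 against 48.3 CPM) and Msx2 (8.54 against 27.4 CPM) respond to Bmp. Fgfr1 (60.6 against 60.7 CPM), Id3 (584 against 607 CPM) and Smo (85.4 against 100 CPM) did not pass the limits. Robo1 and Robo2, receptors of Slit2, were lower at 15.9 and 14.6 CPM against 23.6 and 24.2 CPM. Against Foxa/Shh-positive cells 5 of 25 genes of this list were higher and 10 lower, and against all other cells 7 of 24 were higher and 8 lower.

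The genes of retinoic acid, which is known to be needed for the posterior pouches, differed in both directions. Of 14, 8 were counted against Foxa/Shh-negative cells, with 3 higher and 3 lower. The receptor Rarb (32.4 against 14.7 CPM), the degrading enzyme Cyp26a1 (24.5 against 13.7 CPM) and the retinol dehydrogenase Rdh10 (12.0 against 6.59 CPM) were higher. The binding protein Crabp1 (190 against 591 CPM) and the receptor Rarg (10.9 against 19.5 CPM) were among the lower. The median log2 difference of 0.29 did not keep its sign. With thinned cells 3 genes were counted, of which 0 were higher and 2 lower (median -0.73). Groups defined on thinned cells gave the same counts, with a median of -0.71. Aldh1a2, which makes retinoic acid in mesoderm, had no UMI. Against Foxa/Shh-positive cells 2 of 8 were higher and 2 lower, and against all other cells 4 of 8 were higher and 3 lower. Of 10 Hox genes, 8 had no UMI in the selected cells, the summed level was 1.36 CPM, and none had enough cells to be counted. The mandibular arch is known to be free of Hox expression.

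The remaining leading genes follow. Fn1, which encodes fibronectin, was at 386 CPM (369 to 403) against 128 and 130 CPM in the Foxa/Shh-positive and Foxa/Shh-negative cells, with 0 to 25 UMIs and a median of 4 per cell. Plet1, known from the endoderm of the third pouch, was at 45.2 against 8.99 and 12.6 CPM. Gjb2, a gap junction connexin, was at 32.6 against 4.22 and 5.21 CPM. Cpm (carboxypeptidase M), Sulf1 (a heparan sulfatase), Lifr, Sema6a, Adgrv1 and Cobl were at 51.0, 79.8, 65.2, 71.6, 22.3 and 20.6 CPM against 6.70, 23.3, 18.3, 20.5, 2.78 and 2.01 CPM in Foxa/Shh-negative cells. Of 17 basement membrane and adhesion genes, 15 were counted against Foxa/Shh-negative cells. Only Fn1 and Frem1 (31.1 against 14.1 CPM) were higher and Itga6 (42.7 against 76.1 CPM) lower, so that fibronectin stood apart from the laminins and collagens. With at least 3 Epcam UMIs in every cell, 3 of 15 were higher and 7 lower (median -0.17). The list had 2 higher and 2 lower of 15 against Foxa/Shh-positive cells and 10 higher and 1 lower of 16 against all other cells.

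Other genes were named for their difference from all other kept cells or from Foxa/Shh-positive cells. Against the former, Homer2 (176 CPM), Chchd10 (75.7 CPM), Cyfip2 (41.7 CPM) and Socs2 (181 CPM), a suppressor of cytokine signalling, were among the 20 leading genes, with shares of 81.5%, 60.1%, 39.6% and 75.6% against 25.3%, 12.1%, 6.47% and 27.9%. Against the latter, Tal2 was at 34.4 against 6.79 CPM, the claudin Cldn10 at 42.5 against 10.3 CPM and Colec12 at 57.1 against 19.3 CPM. Lowest against Foxa/Shh-positive cells were Pitx1 (37.5 against 306 CPM), Pmp22 (9.32 against 81.7 CPM), Barx1 (8.35 against 58.2 CPM) and Tlx1 (23.7 against 124 CPM).

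Genes of the oral and surface ectoderm were mostly lower. Of 12 counted from a list of 19, 9 were lower and 2 higher than in Foxa/Shh-negative cells, with a median log2 difference of -1.31. Pitx1, a homeobox factor of the oral ectoderm, was at 37.5 against 136 CPM. Tfap2a, Trp63 and Wnt6 were at 8.73, 12.6 and 21.3 CPM against 43.5, 38.7 and 70.9 CPM. The 2 higher members were Otx2, a head homeobox gene also known from anterior endoderm, at 236 against 95.8 CPM, and Vgll2 at 258 against 155 CPM, and both were higher against Foxa/Shh-positive cells too (132 and 138 CPM). In that comparison 7 of 10 genes were lower and 2 higher, and against all other cells 6 of 10 were lower and 3 higher. All 19 genes summed to 672 CPM in Pax1-positive cells, 792 CPM in Foxa/Shh-negative, 942 CPM in Foxa/Shh-positive and 479 CPM in all other cells. Otx2 and Vgll2, at 236 and 258 CPM, are part of the first sum. Vgll2, which the study describes in part of the oral epithelium at E9.5, was the most abundant gene of the list in Pax1-positive cells.

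Among 22 genes of epithelial junctions and keratins, 11 of 19 counted were higher and 2 lower than in Foxa/Shh-negative cells. Cdh1 (E-cadherin) was at 67.7 against 39.2 CPM, Dsp (desmoplakin) at 158 against 78.7 CPM and Krt18 at 679 against 486 CPM, and Krt7 (24.6 against 47.8 CPM) and Perp (9.51 against 18.6 CPM) were lower. This count changed with the cells that were included, and the cause was not tested. When every cell with a UMI of Prrx1, Pdgfra or Twist1 was left out (186 and 1911 cells remained), 3 of 19 were higher and 2 lower, and Krt18 was at 648 against 691 CPM. With groups defined on thinned cells, Dsp and Krt18 turned to log2 differences of -0.14 and -0.10. When at least 3 Epcam UMIs were required of every cell (325 and 2534 cells), 4 of 19 were higher and 3 lower. Against Foxa/Shh-positive cells 2 of 19 were higher and 5 lower, with Krt8 at 365 against 633 CPM.

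The leading genes held without those cells. With the cells holding a mesenchymal UMI left out, Pax9 was at 74.1 against 1.96 CPM, Uchl1 at 390 against 68.6 CPM, Hmx2 at 50.9 against 3.55 CPM, Rspo2 at 64.7 against 4.01 CPM, Irx1 at 121 against 27.7 CPM, Jag1 at 142 against 46.4 CPM and Fn1 at 420 against 138 CPM. Of pouch and cleft regulators 11 of 19 were then higher and 3 lower, and of ectodermal genes 8 of 11 were lower and 2 higher. Sox9, also a gene of mesenchyme, became higher at 50.9 against 20.1 CPM, and Isl1 was no longer so at 76.1 against 79.5 CPM. Of the basement membrane genes 7 of 14 were then lower.

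Markers of other cell types were summed over each list, and their part in the differences was not tested unless a value is given. Arch mesenchyme (12 genes) summed to 212 CPM in Pax1-positive cells, with Twist1 the most abundant at 63.9 CPM, compared with 578 CPM in Foxa/Shh-negative, 254 CPM in Foxa/Shh-positive and 1057 CPM in all other cells. All 7 genes counted were lower than in Foxa/Shh-negative cells (median -1.24), and 2 of 4 were lower than in Foxa/Shh-positive cells. With at least 3 Epcam UMIs in every cell, 1 of 4 was lower than in Foxa/Shh-negative cells (median -0.22), and without the upper gene limit 7 of 8 were lower and 1 higher (median -0.58). The only member above both groups was Alx4, at 11.8 CPM (9.06 to 15.2) against 2.76 and 2.20 CPM, detected in 14.3% of cells. Sclerotome genes, the other known site of Pax1, summed to 1.36 CPM with Meox1, Nkx3-2 and Tbx18 at 0. Endothelial genes summed to 14.7 CPM against 38.1 CPM, mesoderm core genes to 10.7 against 21.8 CPM, neural crest genes to 32.2 against 39.9 CPM (Erbb3 22.3 CPM, Foxd3 at 0, with Erbb3 alone counted and higher) and neuronal genes to 3.30 against 10.4 CPM with 4 of 8 at 0. None of the sclerotome, endothelial, mesoderm core or neuronal genes reached the share of cells needed in that comparison. The 12 foregut endoderm genes other than Foxa1, Foxa2 and Shh, which define the groups, summed to 38.0 CPM (32.9 to 43.8) in Pax1-positive cells, 34.9 CPM (33.3 to 36.4) in Foxa/Shh-negative and 47.9 CPM (42.3 to 54.1) in Foxa/Shh-positive cells. The interval of the selected cells overlapped those of both groups. The only counted gene of the list, Prdm1 at 19.6 CPM, passed no limit against either epithelial group. The thyroid factor Nkx2-1 was at 0.776 CPM and Hhex at 5.05 CPM.

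**Figure D2:**
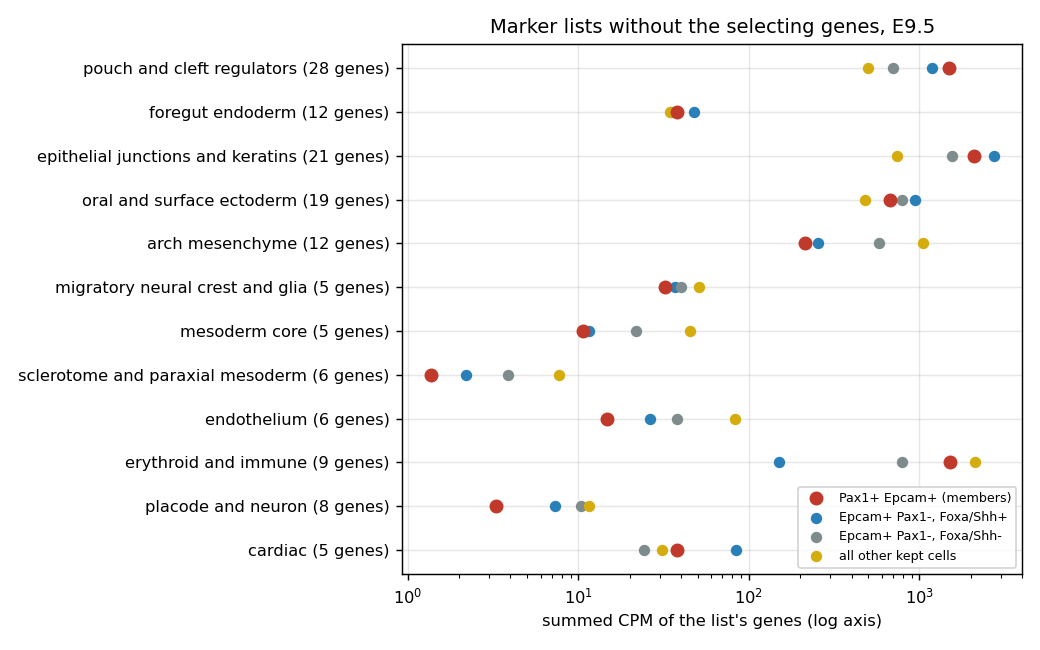
Summed CPM, on a log axis, of 12 lists of marker genes, without Pax1, Epcam, Foxa1, Foxa2 and Shh, in the 4 groups of E9.5 cells. The 356 Pax1-positive epithelial cells (members) are at 1484 CPM for pouch and cleft regulators (1194 CPM in Foxa/Shh-positive and 702 CPM in Foxa/Shh-negative cells). Uchl1, a ubiquitin hydrolase gene on that list, makes up 372, 189 and 47.7 CPM of these sums. The members sit below all other kept cells in arch mesenchyme (212 against 1057 CPM).

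The erythroid list came from very few cells. Hbb-y, Hba-x and Hbb-bh1 were higher than in both epithelial groups, at 761, 562 and 153 CPM against 368, 317 and 86.3 CPM in Foxa/Shh-negative cells. However, 2 of the 356 cells held 6911 of the 7601 embryonic globin UMIs, and the median was 2 globin UMIs per cell in each of the 3 groups. Without cells of 1000 or more globin UMIs, the log2 differences were -0.09 for Hbb-y, -0.06 for Hba-x and -0.03 for Hbb-bh1. The white blood cell genes Ptprc and Csf1r were at 0. The contractile genes Myh7 (20.8 against 6.43 CPM) and Myl7 (12.4 against 7.72 CPM) were higher than in Foxa/Shh-negative cells, with Tnnt2 at 0.970 CPM and the cardiac list at 37.8 against 24.4 CPM. Foxa/Shh-positive cells had more Myh7, 41.5 CPM.

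Cell cycle genes differed little. Of 14 cell cycle genes 1 was higher (Ccnd2, 1209 against 917 CPM) and 1 lower (Cdkn1a, a cell cycle inhibitor, 16.1 against 27.0 CPM) than in Foxa/Shh-negative cells, with a median of 0.04, and Mki67 was at 391 against 320 CPM. None of 14 was higher and 2 were lower than in Foxa/Shh-positive cells, one being the inhibitor Cdkn1c at 176 against 371 CPM. Of the stress and immediate-early genes 4 were counted and 2, Egr1 and Ier2, were lower than in Foxa/Shh-negative cells (9.90 and 108 CPM against 20.7 and 166 CPM).

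Within the 356 cells, groups with different numbers of Pax1 UMIs passed the 1.3-fold limit for some of the leading genes and not for others. Pax1 is the gene of the selection and its counts per cell are low. The split therefore describes these groups and cannot show whether a gene depends on Pax1. Between cells with 3 or more and cells with 1 Pax1 UMI, with median depths of 14280 and 13433 UMIs, 786 of 7870 genes (9.99%) were higher and 653 (8.3%) lower, and the interval excluded equality for 514 of these. Hmx2 was at 22.1 CPM with 1 Pax1 UMI, 36.9 CPM with 2 and 76.2 CPM with 3 or more, and its share of cells was 17.7% in the first and 50.3% in the last. Hmx3 was at 30.2, 48.8 and 62.7 CPM. Nkx2-3 (179, 221 and 308 CPM), Otx2 (165, 253 and 287 CPM), Uchl1 (275, 396 and 440 CPM) and Alx4 (8.09, 8.97 and 16.1 CPM) were likewise highest with 3 or more Pax1 UMIs. Sema6a and Cpm were at 98.9 and 67.5 CPM with 3 or more against 38.3 and 27.5 CPM with 1.

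Pax9 stayed within the 1.3-fold limit between cells with 1 and cells with 3 or more Pax1 UMIs. It was at 58.8, 63.8 and 59.2 CPM with 1, 2 and 3 or more Pax1 UMIs (log2 difference of the last from the first 0.01, -0.36 to 0.39). Irx1 (86.9, 120 and 86.7 CPM), Eya1 (39.9, 51.8 and 42.3 CPM), Jag1 (104, 146 and 125 CPM) and Rspo2 (42.6 CPM in the first and 47.5 CPM in the last) also stayed within the 1.3-fold limit between the first and the last. Of the ectodermal list 6 of 10 genes were lower and 2 higher with 3 or more Pax1 UMIs than with 1, and of arch mesenchyme 3 of 4 were lower and 1 higher. Pitx1 was at 71.8, 24.9 and 15.2 CPM, Twist1 at 111, 42.8 and 35.3 CPM and Fgf8 at 82.6 CPM in the first and 48.8 CPM in the last. Cells with 1 Pax1 UMI thus carried more RNA of these ectodermal and mesenchymal genes, and its part in the other differences along Pax1 was not tested.

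**Figure D3:**
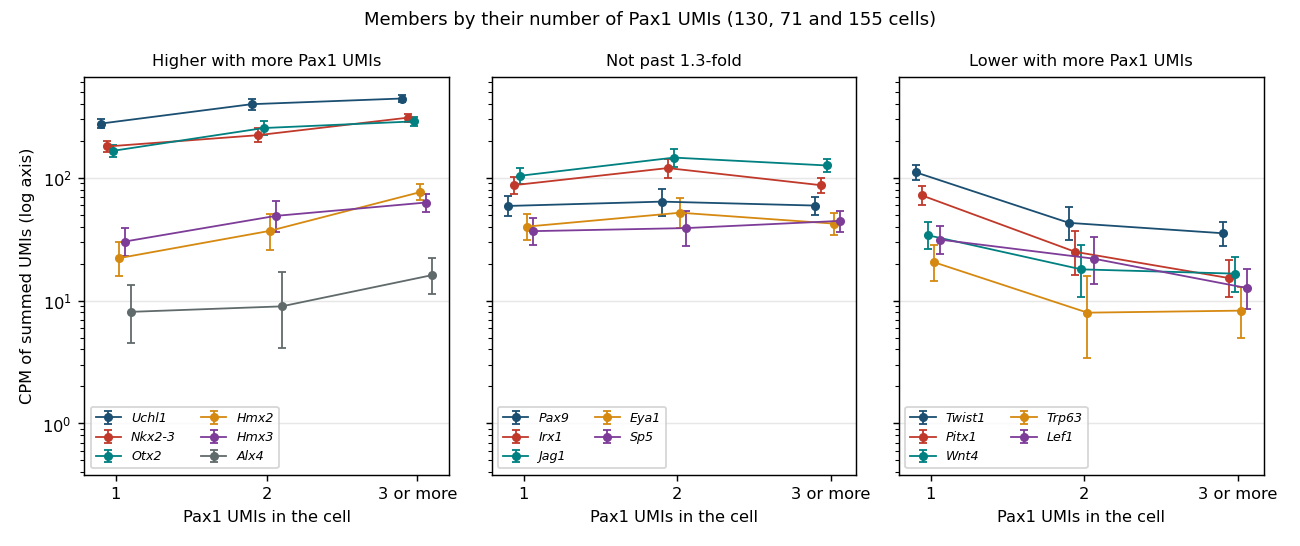
CPM of summed UMIs (log axis, exact 95% Poisson intervals) in cells with 1, 2 and 3 or more Pax1 UMIs (130, 71 and 155 cells) for genes that were higher with more Pax1 UMIs, genes within the 1.3-fold limit and genes that were lower. The limit applies between cells with 1 and cells with 3 or more Pax1 UMIs. Hmx2 goes from 22.1 to 76.2 CPM, Pax9 stays between 58.8 and 63.8 CPM, and Pitx1 goes from 71.8 to 15.2 CPM.

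The 124 cells with a UMI of Foxa1, Foxa2 or Shh were compared with the 232 without. Of 7934 genes 637 (8.03%) were higher and 576 (7.26%) lower in the former, and the interval excluded equality for 447. Median depth was 14388.5 against 13623.5 UMIs. Tbx1 was at 40.0 against 18.3 CPM, Pax9 at 78.9 against 49.1 CPM, Sox2 at 205 against 124 CPM and Otx2 at 292 against 205 CPM. The Hedgehog targets Ptch1 (220 against 135 CPM) and Hhip (19.7 against 6.71 CPM) and the forkhead gene Foxe1 (107 against 51.9 CPM) were also higher, as were the contractile genes Myl9 (43.7 against 15.6 CPM) and Myh7 (35.7 against 12.2 CPM) and Gdnf, a neurotrophic factor (20.8 against 7.63 CPM). In all, 7 of 17 pouch regulators were higher and 1, Sox9, lower. Hmx2 (43.2 against 52.5 CPM), Irx1 (80.5 against 100 CPM), Rspo2 (41.1 against 50.4 CPM) and Jag1 (129 against 117 CPM) stayed within the limit. Hmx2, Irx1, Rspo2 and Jag1 thus differed by less than 1.3-fold, which does not show equal levels, between cells with and without endoderm genes. Among other leading genes, Uchl1 (451 against 327 CPM), Gm12446 (41.6 against 13.1 CPM), which overlaps Foxe1, and, as given above, Pax9 were higher with them.

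Lower in the cells with endoderm genes were Fn1 (323 against 422 CPM), Cdh11 (17.6 against 51.9 CPM), Msx1 (11.7 against 35.4 CPM), Nr2f1 (9.06 against 31.1 CPM) and Twist1 (33.1 against 81.5 CPM). All 4 of the arch mesenchyme genes counted were lower. For Twist1 the share of cells ran the other way, 32.3% against 28.4%, so its difference lay in a small number of cells with many UMIs.

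**Figure D4:**
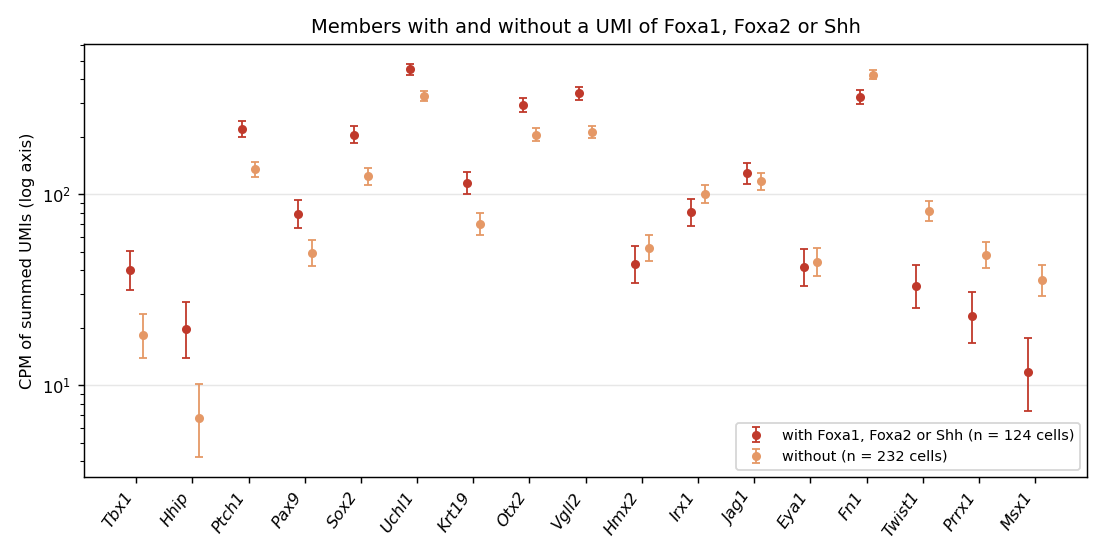
CPM of summed UMIs (log axis, exact 95% Poisson intervals) of 17 genes in the 124 Pax1-positive epithelial cells with and the 232 without a UMI of Foxa1, Foxa2 or Shh. Tbx1, Hhip and Ptch1 are higher with these genes (Tbx1 40.0 against 18.3 CPM), the intervals of Eya1 overlap, and Twist1, Prrx1 and Msx1 are lower (Msx1 11.7 against 35.4 CPM).

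The 20 leading genes against Foxa/Shh-negative cells were spread over the cells and were not carried by a few. A Pax1-positive cell had a UMI of 9 of the 20 in the median, with a range of 0 to 17, against 3 in a Foxa/Shh-negative and 4 in a Foxa/Shh-positive cell. At least 8 of the 20 were found in 68.0% of Pax1-positive, 8.08% of Foxa/Shh-positive and 1.38% of Foxa/Shh-negative cells. As the 20 were chosen for their difference, these shares describe how it is distributed and add no support.

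Pairs of the 20 genes were set against the joint share that their single shares would give. Over 190 pairs the median ratio was 1.07, and the counting interval lay above 1 for 29 pairs and below 1 for 7. Since all pairs share the depth of the cells, no p-value is given. Hmx2 and Hmx3, the neighbouring genes whose upstream bases are printed above, were found together in 21.9% of cells where 12.9% would follow from their single shares, a ratio of 1.70 (1.37 to 2.06). Hmx2 with Cpm had a ratio of 1.59 (1.24 to 1.98), Rspo2 with Adgrv1 1.57 (1.17 to 2.05), and Irx1 with Sp5 1.43 (1.17 to 1.72). The lowest ratios were those of Gm12446 with Sp5, 0.524 (0.263 to 0.926), and with Irx1, 0.589 (0.363 to 0.896). Hmx3 with Sp5 had a ratio of 0.69 (0.46 to 0.97). These pairs were picked from the 190 after their values were seen, and each interval stands for 1 pair alone.

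**Figure D5:**
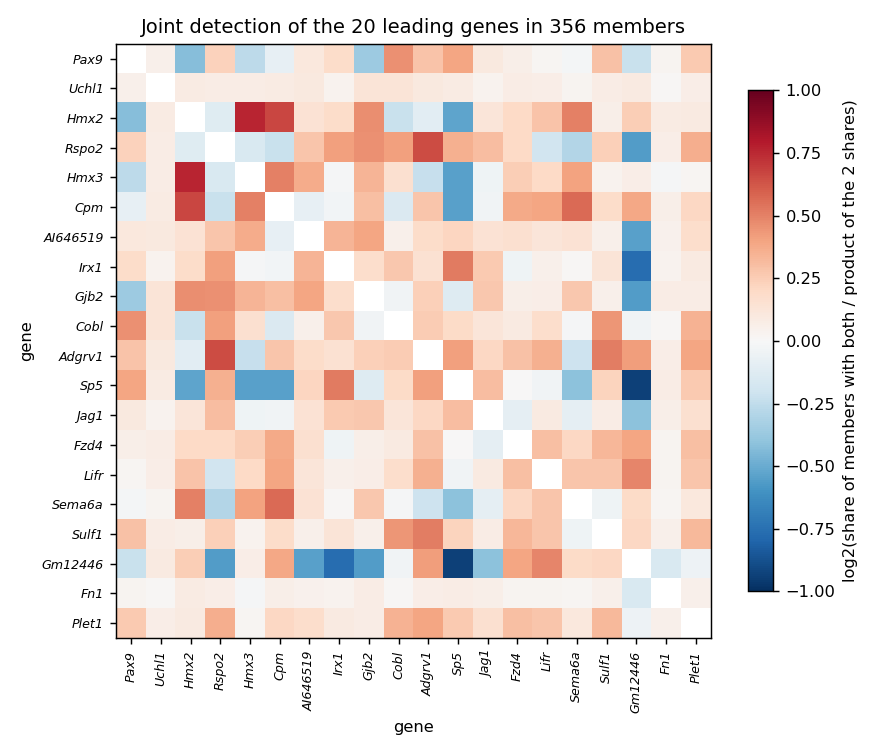
Ratio of observed to independent joint detection for each pair of the 20 leading genes in the 356 Pax1-positive epithelial cells, with genes on both axes. The strongest ratio is that of Hmx2 with Hmx3 (1.70) and the weakest that of Sp5 with Gm12446 (0.524), and most of the 190 pairs lie near the median of 1.07.

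At E12.0 the same rule found few cells. Of 11355 kept cells 28 had a UMI of both genes, 0.247% (0.164 to 0.356), which is 0.294% of the 9536 Epcam-positive cells there. Pax1 was at 0.526 CPM over that library and at 6.29 CPM over the E9.5 library, and 23 of the 28 cells had a single Pax1 UMI. In these 28 cells Pax9 was at 119 CPM (76.8 to 175), above 13.0 CPM in all kept E12.0 cells. Hmx2, Hmx3 and Rspo2 had no UMI in 210599, which at the same floor of 3 counts is 14.2 CPM, and they had 4, 0 and 0 UMIs in all kept E12.0 cells, so this was not particular to the 28 cells. Uchl1 was at 4.75 CPM, Pitx1 at 385 CPM and Trp63 at 261 CPM, beside 25.3, 303 and 253 CPM in all kept E12.0 cells. The libraries differ in stage, in sorting for GFP and in dissection, which cannot be told apart, and 28 cells are too few for further comparison.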

How the data were processed

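Single-cell 3′ libraries of the E9.5 and E12.0 mandible were read as UMI counts per gene and cell barcode, which the authors deposited without normalization after alignment and barcode selection by Cell Ranger. The submitters' processing notes name Cell Ranger 2.0.0 and the build GRCm38 (mm10), whereas the matrix headers name version 6.1.2 for E9.5 and 3.1.0 for E12.0. How strand was used in counting is not given in the sources used here. The E9.5 matrix held 14293 barcodes, 31053 genes and 208540526 UMIs, and the kept cells 166191431 UMIs.

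Cells with 200 to 5500 genes and no more than 10% mitochondrial UMIs were kept, following the study. This removed 1549 barcodes, of which 11 had fewer genes, 1129 had more and 418 exceeded the mitochondrial limit, 9 of these with fewer genes as well. Doublets were not removed. UMIs were summed over groups and given as CPM, and 5 CPM were added to both sides only for ranking genes and for the medians of lists. Intervals of CPM are exact Poisson, of shares Clopper-Pearson and of ratios exact for a pair of counts. Fold and share limits of 1.3 and 15% are those of the study's marker criteria. With 1 library per stage no test was run, and the groups come from counts in the cells and not from labels.

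The genes named are those of 19 fixed lists, together with the 20 highest and 10 lowest of each comparison between Epcam-positive groups. Some of these genes are counted within their lists but are not reported here. Genes named from the comparison with all other cells or within the selected cells were chosen after their values were seen. The cells and the lists were chosen with earlier results of these data known. Gene positions are those of GENCODE vM21, and upstream sequences those of RefSeq on GRCm38.p6. Python 3.11.15 was used with a seed of 1. Doublets were called with Scrublet in scanpy 1.11.5 (331 of the kept cells, 13 of them selected), intervals came from scipy 1.17.1, tables from pandas 2.3.3 and numpy 2.4.6 and plots from matplotlib 3.10.9, and the steps were tested on simulated data. The alternatives changed the limits, the thinning, the selection of cells, doublets, quality filters and the genes in the total.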

Additional observations from a re-analysis of the deposited data

Results flagged for a closer look

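The upper limit of 5500 genes removed 105 cells that had a UMI of both Pax1 and Epcam, a signal in cells that the comparisons did not use. They were 9.30% of the 1129 cells above that limit and 13.2% of the 794 Epcam-positive cells among them, compared with 7.39% of Epcam-positive cells below it, and their median depth was 34026 UMIs. Against the other Epcam-positive cells above the limit, Pax9 was at 34.2 against 2.18 CPM, Uchl1 at 188 against 44.4 CPM, Hmx2 at 24.7 against 2.06 CPM and Rspo2 at 36.5 against 3.07 CPM. Twist1, a mesenchymal gene, was at 243 against 306 CPM, and at 63.9 CPM in the 356 cells below the limit. Whether they are mixtures of cells was not tested.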

How the results depend on the processing

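Counts of genes are given in the order higher and lower against Foxa/Shh-negative, Foxa/Shh-positive and all other cells. The counts followed the limits most. A fold of 2 left 114 and 79, 70 and 114, and 391 and 146 genes. A UMI in 25% of cells left 393 and 219, 247 and 431 and, for lower against all other cells, 403. Without a limit on the share there were 3801 and 6937, 3218 and 4549, and 5152 and 8841. With cells thinned after grouping there were 213 and 154, 324 lower against Foxa/Shh-positive cells, and 495 and 249 against all other cells. Grouping after thinning left 135 selected cells, 321 genes higher against Foxa/Shh-negative cells, and 635 and 400 against all other cells. At least 2 UMIs of Pax1 and Epcam left 222 cells. Without the upper gene limit 231 genes were lower than in Foxa/Shh-negative cells. Without cells with a UMI of Prrx1, Pdgfra or Twist1, 186 cells remained, with 664 genes higher against Foxa/Shh-positive cells and 650 and 364 against all other cells. The counts under these settings that are not listed stayed within 1.5 times, as did all counts with each cell weighted equally, without the doublets called by Scrublet, with a limit of 5% mitochondrial UMIs and without mitochondrial, ribosomal and globin genes in the total. The same holds for a pair of alternatives chosen after seeing the data, without cells of 1000 globin UMIs and with at least 3 Epcam UMIs.

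Log2 differences from Foxa/Shh-negative cells were recomputed for 165 genes in 11 alternatives. Among genes that had passed the limits as higher or lower, 26 values changed sign. Sign changes of the other genes, such as Sox9 without mesenchymal UMIs, were not counted. Many others moved by more than the counting error of the reported value, 92 with grouping after thinning, 85 with 3 Epcam UMIs, 79 without mesenchymal UMIs, 49 without the gene limit, 45 with thinning after grouping, 40 with at least 2 UMIs, 22 with cells weighted equally and 2 without doublets. After thinning, Cldn4 was at -0.0099. Grouping after thinning gave Nkx2-5 -0.11, Isl1 -0.39, Irx2 -0.024, Krt18 -0.10, Dsp -0.14, Vegfa -0.47, Axin2 -0.44, Etv5 0.20, Hba-x -2.29, Hbb-y -1.55 and Hbb-bh1 -1.90. At least 2 UMIs gave Hba-x -2.52, Hbb-y -2.38 and Hbb-bh1 -2.17. Without the gene limit Hba-x was at -0.046 and Hbb-bh1 at -0.014. Without mesenchymal UMIs Isl1 was at -0.058, Cldn3 at -0.044, Krt18 at -0.092 and Prrx2 at 0.14. Without globin-rich cells Hba-x was at -0.064, Hbb-y at -0.093 and Hbb-bh1 at -0.031. With 3 Epcam UMIs Spint2 was at -0.00038 and Prrx1 at 0.19. In the main selection 2 of the 356 cells held 6911 of 7601 globin UMIs, and the cause of the other changes was not tested. No paired analysis was possible because there is 1 library per stage. Depth limits genes of few UMIs, and 3 UMIs in the selected cells are 0.582 CPM.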
